A study of Mus musculus with 24 samples.

Results

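In liver invariant natural killer T (LiNKT) cells of NOD mice, 434 of the 2873 regions that differed in CpG methylation between untreated and αGalCer/CD1d-NP-treated animals started below 20% and ended higher. These gaining regions were selected on their values in the deposited region table, namely an untreated group mean under 20% and a treated mean above the untreated mean. They are 434 of the 890 regions with a higher treated mean; the other 456 started at 20% or more, and 1983 regions had a lower treated mean. The methylation of the 434 regions, by region or by single cytosine, is therefore a description. Their place, their sequence, chromatin accessibility and the expression of the genes they overlap were not among the values that selected them. The choice was made with earlier results of these data known.

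NOD mice develop autoimmune diabetes spontaneously. LiNKT cells were sorted from the liver with tetramers of CD1d loaded with αGalCer, the glycolipid (KRN7000) that iNKT cells recognise. The treated mice received iron oxide nanoparticles coated with mouse CD1d and αGalCer, at 20 µg per dose and 2 doses per week for 5 weeks. The labels give the other mice as untreated. The study's methods say that controls were left untreated or received Cys-NPs, a control nanoparticle. Whole genome bisulfite sequencing (WGBS) used cells of 7 untreated female mice at 17 weeks of age and of 4 treated mice at 16 weeks, whose sex is not given in the sources used here. SmartSeq2 used 3 untreated and 3 treated male mice, and the multiome 5 untreated and 4 treated male mice, all at 13 to 15 weeks by the methods. A figure legend of the study instead gives the multiome controls as vehicle-treated and both multiome groups a younger age. Every kind of data used here holds 1 value per group, so no comparison below has a replicate check and no test between groups could be made. Nor can a change within cells be told apart from a change in the mix of cells.

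DNA methylation in mammals sits mostly on the cytosine of a CpG. Most CpGs outside promoters are methylated, and stretches with little methylation in a given cell type are often bound by transcription factors there. Maintenance by DNMT1 at replication, new methylation by DNMT3A and DNMT3B, and oxidation by TET enzymes set the level.

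6 of the gaining regions are printed here from the GRCm38 reference, 5′ to 3′ on the forward strand, with each whole CpG in capitals; the letters are those of the RefSeq assembly of C57BL/6J mice, not of NOD mice. The first 3 lie in genes of lymphocyte transcription factors, Foxp1 and Gata3, and the next ones are an intronic region with a gain among the largest, in Vps37b, and the region with the lowest ratio of chromatin insertions among those with at least 200, in Frmd6. The last, in Srpk2, is a copy of a repeated sequence and is shown because its 2 deposited values contradict each other. The label of a coding exon means an overlap of at least 1 base with one, so part of such a region may be intron.
Foxp1 intron, chr6:99389293-99389570: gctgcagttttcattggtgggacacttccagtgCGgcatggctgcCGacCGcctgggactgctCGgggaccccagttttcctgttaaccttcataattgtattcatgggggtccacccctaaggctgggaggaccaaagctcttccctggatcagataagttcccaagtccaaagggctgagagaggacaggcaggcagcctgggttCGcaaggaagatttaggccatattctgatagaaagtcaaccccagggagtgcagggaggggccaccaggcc
Foxp1 intron, chr6:99374532-99374733: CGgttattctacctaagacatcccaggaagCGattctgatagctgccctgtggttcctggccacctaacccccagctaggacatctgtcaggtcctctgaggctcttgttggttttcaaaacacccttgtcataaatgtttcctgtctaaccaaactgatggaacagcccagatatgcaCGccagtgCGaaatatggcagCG
Gata3 intron, chr2:9862398-9862641: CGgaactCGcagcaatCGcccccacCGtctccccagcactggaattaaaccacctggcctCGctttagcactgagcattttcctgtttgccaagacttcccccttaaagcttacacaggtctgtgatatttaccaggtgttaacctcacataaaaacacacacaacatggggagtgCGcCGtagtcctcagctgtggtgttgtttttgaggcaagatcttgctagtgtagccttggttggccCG
Vps37b intron, chr5:124011097-124011348: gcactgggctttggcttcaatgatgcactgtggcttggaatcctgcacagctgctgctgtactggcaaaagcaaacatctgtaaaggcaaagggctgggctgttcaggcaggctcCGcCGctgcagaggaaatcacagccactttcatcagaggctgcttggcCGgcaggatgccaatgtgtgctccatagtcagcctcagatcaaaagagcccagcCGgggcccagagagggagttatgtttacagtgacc
Frmd6 coding exon, chr12:70883776-70884011: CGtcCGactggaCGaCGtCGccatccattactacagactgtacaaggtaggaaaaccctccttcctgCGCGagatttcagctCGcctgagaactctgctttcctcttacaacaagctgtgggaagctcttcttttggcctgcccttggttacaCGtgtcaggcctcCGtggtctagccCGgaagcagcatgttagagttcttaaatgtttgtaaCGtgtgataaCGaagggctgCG
Srpk2 intron, chr5:23569996-23570248: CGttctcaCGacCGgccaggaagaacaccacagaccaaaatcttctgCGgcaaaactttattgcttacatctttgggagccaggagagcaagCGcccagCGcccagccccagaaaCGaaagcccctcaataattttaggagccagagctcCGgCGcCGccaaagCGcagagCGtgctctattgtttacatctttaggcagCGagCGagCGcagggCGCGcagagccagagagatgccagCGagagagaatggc

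In the Gata3 region all 8 CpGs rose, from between 13% and 24.0% in untreated cells to between 52.0% and 75% in treated cells, each value being the mean of both strands. In the Foxp1 region of 278 bases the 4 closely spaced CpGs near its start held 2.5%, 3.5%, 12% and 6.5% in untreated cells and 54.5%, 25.5%, 73.0% and 64.5% in treated cells, in that order. The CpG at base 208 of that region was higher in both groups, at 32.0% and 83.5%. In the Vps37b region the 4 whole CpGs went from between 2.5% and 7.5% to between 47.0% and 79.5%. These values are part of what chose the regions and are given as a description. In the Srpk2 copy the region table gives 6.67% and 84.7%, while the 16 listed cytosines average 77.8% in untreated and 70.8% in treated cells.

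Over all 434 regions the table means had a median of 12.1% in untreated cells, from 0.556% to 19.99%, and of 45.9% in treated cells, from 11.4% to 86.1%. The gain had a median of 32.5 percentage points, from 10.3 to 82.1. The other 456 regions with a gain moved by a like amount, with a median of 31.4 points, from a higher start (33.2%). The 2 regions just inside the limit of 20% were in an intron of Camkk2 (chr5:122771017-122771496, 19.92% to 48.6%) and in an exon of Ptpn3 (chr4:57262160-57262944, 19.99% to 54.7%). Just outside it were a region in an exon of Atxn2 (chr5:121811441-121813212, 20.001% to 58.3%) and an intergenic region (chr3:101297062-101297574, 20.009% to 54.5%).

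Read from the cytosines themselves, the untreated mean was under 20% in 373 of the 434 regions, from 20% to 30% in 34 and higher in 27. The deposited site table lists 9179 CpG cytosines in the 434 regions. In the 407 regions of the first 2 kinds they averaged under 30% in untreated cells, and there the untreated value from the sites differed from the table's by a median of 0.908 points. In the other 27 the sites averaged between 39.1% and 88.5%, a median of 55.4 points above the table's value. Of these 27 regions, 26 had over 50% of their words of 31 bases elsewhere on the chromosomes of GRCm38, against 2 of the 407; 24 against 3 were over 50% soft-masked as repeats. Only 69.6% of their CpG cytosines had a partner listed on the other strand, against 97.2%. All 10 regions with the largest gain in the table were among the 27. Over the 27 regions the sites averaged 66.4% in untreated and 74.1% in treated cells, and in 1 of them, the Srpk2 copy, the treated mean was not higher. Methylation by site, CpG density and insertions are given below for the 407 regions, and place, motifs, genes and expression for all 434.

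**Figure D1:**
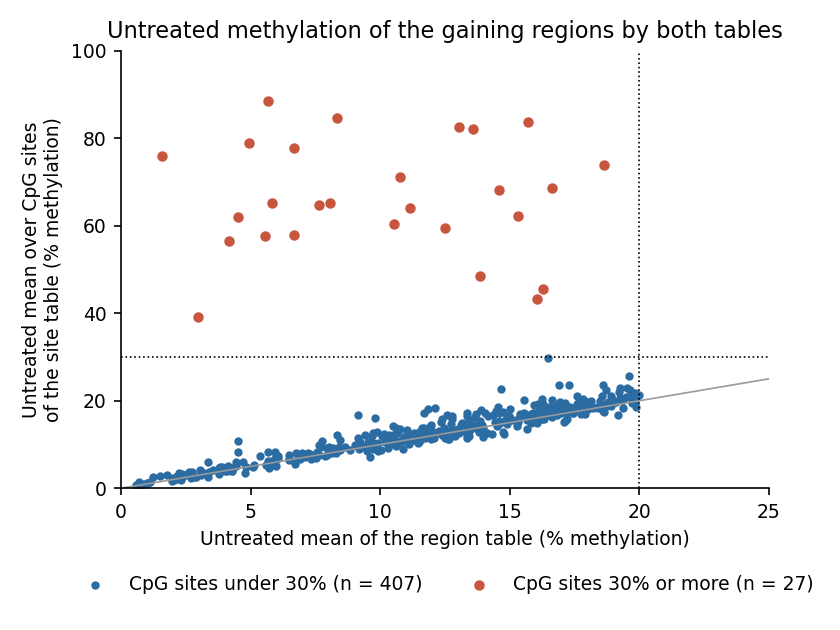
Untreated methylation of each of the 434 regions: horizontal axis, mean of the region table (%); vertical axis, mean over the CpG sites of the site table (%). The grey line marks equal values and the dotted lines 20% and 30%. The 407 regions lie along the line, except 1 that is more than 10 points off it, and 27 lie far above it, between 39.1% and 88.5%.

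The 10 regions with the largest table gain were chrX:98104120-98104436, chr5:23569996-23570248 in Srpk2, chr10:106396423-106396786, chr6:108087187-108087551, chr11:116759524-116759830, chr14:9051809-9052041, chr5:6487862-6488130, chr3:93290651-93291025 in Flg, chr6:26960505-26960946 and chr14:112432810-112433022. Their table gains ran from 64.1 to 82.1 points, and their site means in untreated cells from 39.1% to 88.5%. Among the 407 regions, the largest gains were in Sv2a (chr3:96195042-96195249, 11.4% to 68.4%), Txnip (chr3:96560559-96561712, 13.2% to 69.9%), Vav3 (chr3:109361970-109362362, 7.72% to 63.3%), Vps37b (10.2% to 65.6%) and Rara (chr11:98949881-98950205, 18.02% to 72.5%). These 5 were named after their values were seen, in place of the copies. Txnip encodes an inhibitor of thioredoxin and of glucose uptake, Vav3 a signalling protein downstream of antigen receptors, and Rara a receptor for retinoic acid.

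In the 407 regions the gain covered the whole region and left the sites at intermediate levels. Their 8340 CpG cytosines averaged 13.1% ± 13.5 (SD over sites) in untreated and 42.8% ± 21.3 in treated cells, and 98.6% of the cytosines were higher in treated cells. In 336 of the 407 regions every listed CpG cytosine was higher. The share of cytosines at exactly 0% fell from 11.5% to 0.144%, and the share at 50% or more went from 2.77% to 36.8%. Both groups were lowest in the middle of a region and highest at its ends. Of 10 equal segments, the sixth held 10.01% and 38.4%, the first 17.1% and 48.1% and the last 16.9% and 47.4%. The gain itself stayed between 27.2 and 30.98 points in all 10 segments. Higher ends were not particular to these regions. In regions that lost methylation the first segment held 76.3% in untreated and 42.5% in treated cells, and the fifth 72.5% and 36.4%.

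**Figure D2:**
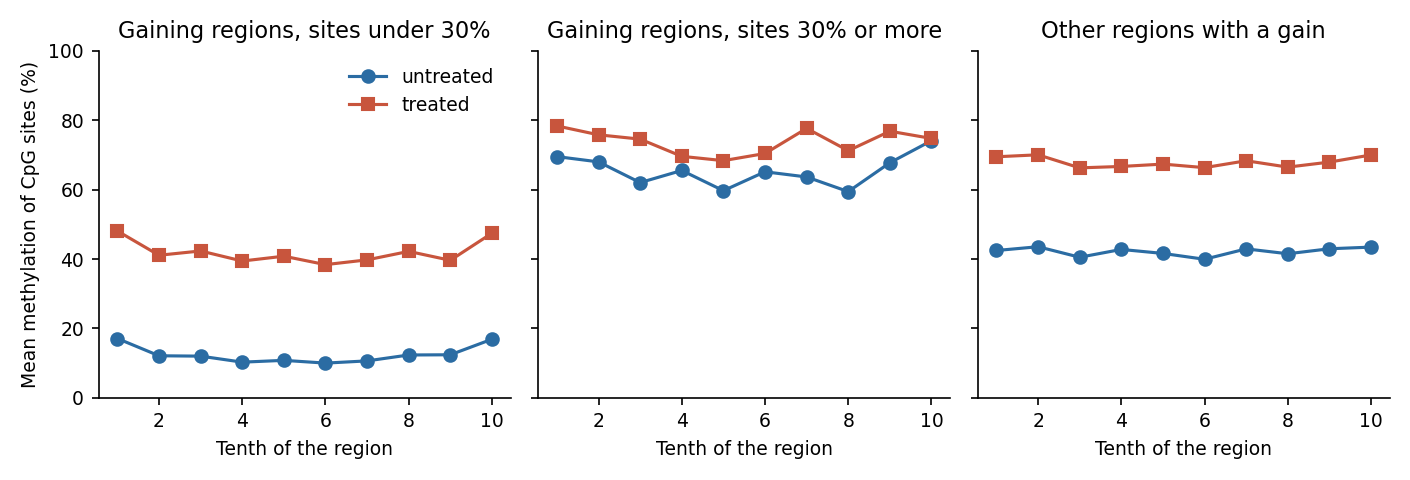
Mean methylation of CpG cytosines (vertical axis, %) in 10 equal segments of the region (horizontal axis) in untreated (circles) and treated (squares) cells, for the 407 gaining regions, the 27 whose sites averaged 30% or more, and the 456 other regions with a gain. In the 407 regions the lines run about 30 points apart from end to end, while in the 27 they lie close together.

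Cytosines outside CpGs, which carry little methylation in lymphocytes and so also show what bisulfite left unconverted, stayed low. In the 407 regions 42843 such cytosines averaged 1.59% in untreated and 1.98% in treated cells. In regions that lost methylation the values were 1.68% and 1.78%. The 520 non-CpG cytosines listed in the 27 regions stood at 5.61% and 8.46%.

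Most gaining regions lay inside genes and outside promoters, as did most of all regions (74.8% in gene bodies, 14.4% in promoters). The median distance to the nearest protein-coding start was 25.3 kb for the 434 regions and 30.3 kb over all regions. A gene body of any kind was overlapped by 334 of the 434 regions (77.0%; 80.1% of the 407), and 303 (69.8%) lay within 50 kb of the start of a protein-coding gene, against 64.3% of all regions. A promoter, taken as 2 kb on either side of a transcription start site (TSS), was overlapped by 73 (16.8%), of which 32 were promoters of protein-coding genes. By the most specific feature of any GENCODE M21 transcript, 222 were intronic, 58 touched a coding exon, 37 an untranslated exon part of a coding gene and 17 an exon of a non-coding gene, 7 lay in a promoter outside any gene body, and 93 were intergenic. The other regions with a gain were alike in this (84.0% in gene bodies, 17.5% in promoters), and of the regions that lost methylation 72.2% lay in gene bodies and 13.2% in promoters. Of the 27 regions, 18 were intergenic.

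The 407 regions were not CpG islands as a group. They held a median of 2.15 CpGs per 100 bp, with a GC content of 51.2% and an observed over expected CpG ratio of 0.347. Of them, 23 (5.65%) combined a ratio over 0.6 with a GC content over 50%. The share was 7.24% in the other regions with a gain and 4.28% over all regions. The other regions with a gain were alike, with 2.31 CpGs per 100 bp and 50.7% GC. Regions that lost methylation had 1.95 CpGs per 100 bp and 45.9% GC. The 27 regions were far denser, with 6.11 CpGs per 100 bp, and 18 of them passed both limits. The 5 regions with the most CpG positions were 2 abutting regions in a coding exon of Mab21l2, within Lrba (chr3:86546889-86547507, 98 CpG positions, 2.10% to 17.3%, and chr3:86547508-86548466, 91 positions, 8.66% to 42.6%), and regions in Hic1 (chr11:75167003-75167429, 10.3% to 32.1%), Cd247 (chr1:165840699-165841482, 10.9% to 38.9%) and at the start of Rgs8 (chr1:153652530-153653505, 18.4% to 42.8%). Positions count the cytosines of both strands.

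Short words recognised by transcription factors were counted in the 200 bp at the centre of each region, on both strands. The ETS word CAGGAA was in 38.5% of the 434 regions, in 30.7% of the other regions with a gain, in 20.6% of the regions that lost and in 21.5% of windows of the same length at RefSeq gene starts. The AP-1 word TGACTCA was in 3.00% of the gaining regions, in 1.75% of the other regions with a gain, in 18.2% of the regions that lost and in 3.66% of the gene starts. The RUNX word TGTGGT was in 24.9%, 24.8%, 17.8% and 11.2%, and the TCF1 and LEF1 word CTTTGA in 13.6%, 15.6%, 15.4% and 10.9%, in the same order. The second ETS word, CCGGAA, was in 5.99%, 6.14%, 4.09% and 10.7%, the KLF and SP word GGGCGG in 10.4%, 7.24%, 3.38% and 31.05%, the E-box CACGTG in 4.15%, 4.39%, 4.29% and 5.26%, and the GATA word AGATAA in 9.91%, 10.7%, 9.88% and 7.80%. The words GCATGCGC (NRF1), GATGGCGG (YY1) and GGGACTTT (NF-κB) were in 1, 2 and 2 of the 434 regions. A matching word is not a bound site. Against the regions that lost, both kinds of region with a gain thus held CAGGAA more often and TGACTCA less often, with no test made.

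The regions overlapped the body or promoter of 363 genes, of which 300 were protein-coding, or 1.37% of all 21911. Of these 300 genes, 67 also held a region that lost methylation. Of 24 genes named for naive and memory T cells, 6 held a gaining region (25%): Foxp1, Satb1, Lef1, Ccr7, Ets1 and Txk. In this list 6 genes also held a region that lost methylation and 4 another region with a gain. Of 44 genes of iNKT lineage and function, 4 did (Gata3, Rora, Ccr9 and Fyn; 9.09%), and of 15 genes of T cell receptor signalling and DNA methylation 1 did (Cd247). None of 24 genes associated with Tr1 cells, such as Il10, Il21, Lag3 and Maf, held a gaining region, while 17 of them (70.8%) held a region that lost methylation. Such a region was also held by 15 of the iNKT list (34.1%), 8 of the signalling list (53.3%) and 920 of all protein-coding genes (4.199%). The Tr1 list holds genes, Il10, Il21, Lag3 and Maf among them, that the study reports as upregulated and hypo-methylated from the same bisulfite data. All the lists were set with earlier results of these data known. Their counts are therefore a description and not an independent result. Of 216 genes whose symbols mark developmental regulators, 1 held a gaining region, again Gata3. The median gene length was 30.1 kb in the naive and memory list, 12.7 kb in the iNKT list, 24.3 kb in the Tr1 list, 38.3 kb in the signalling list, 7.73 kb in the developmental list and 17.4 kb over all protein-coding genes; the part of length in these counts was not tested.

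Foxp1, a forkhead factor that keeps T cells quiescent, held 5 gaining regions in its introns and exons. They went from 9.73% to 50.5% (chr6:99265998-99266697), 18.7% to 59.1% (chr6:99374532-99374733), 7.95% to 31.9% (chr6:99388068-99389221), 11.7% to 60.3% (chr6:99389293-99389570) and 4.12% to 31.9% (chr6:99394576-99394996). Foxp1 also held 6 regions that lost methylation and 1 other region with a gain. The 5 regions overlap Gm20696 too, a model that reads through the same locus.

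Satb1, a chromatin organiser of developing T cells, held 3, at chr17:51810368-51810979 (18.2% to 66.7%), chr17:51811540-51811975 (2.36% to 20.7%) and chr17:51825643-51827637 (15.0% to 38.7%), beside 5 other regions with a gain and no region that lost. Pag1, an adaptor that brings the kinase Csk to the membrane, held 4: 17.4% to 57.3% (chr3:9827587-9828064), 16.6% to 68.7% (chr3:9829637-9830142), 17.1% to 51.2% (chr3:9830492-9831640) and 2.90% to 17.4% (chr3:9832438-9832651). The rRNA model Gm24786 overlaps the second of these and lies within 2 kb of the ones on either side. Spred2, Gse1, Atp8b4 and Grap2 held 3 regions each: Grap2, the adaptor Gads (chr15:80602278-80603536, 16.96% to 51.9%; chr15:80613730-80614058, 9.43% to 33.5%; chr15:80615916-80616318, 12.8% to 59.05%), Spred2, an inhibitor of Ras signalling, where all 3 gained between 25.8 and 41.7 points, and Gse1, where they gained between 37.05 and 48.7. The regions of Gse1 also lie in Gm20388, a model of 4435 kb that spans many genes. In Atp8b4, a membrane ATPase, they went from between 2.34% and 12.9% to between 33.8% and 45.3%. Grap2 also held 2 regions that lost methylation and Spred2 1, while Gse1 and Atp8b4 each held 1 other region with a gain.

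Of the other listed genes, Txk, a kinase of the Tec family, held 2 (chr5:72740849-72741320, 19.6% to 54.9%, and chr5:72750280-72750514, 11.5% to 48.1%). Lef1, a partner of Wnt signalling in naive T cells, held 1 in a coding exon (chr3:131113752-131114088, 16.3% to 47.4%), and Ccr7, the receptor that leads T cells to lymph nodes, 1 in an intron (chr11:99146942-99147662, 10.1% to 58.2%). Ets1, an ETS factor, gained the least of these (chr9:32747412-32748305, 7.76% to 22.4%). The Gata3 region went from 19.7% to 64.9%, that of the nuclear receptor gene Rora from 19.8% to 53.6% (chr9:69301634-69302081), that of the chemokine receptor gene Ccr9 from 17.8% to 59.2% (chr9:123756859-123757182) and that of the Src kinase gene Fyn from 18.7% to 50.5% (chr10:39540213-39540624). All of these lie among the 407 regions. Fyn also held 5 regions that lost methylation, Rora and Ets1 2 each, and Ccr9 1 beside 2 other regions with a gain. Txk, Lef1, Ccr7 and Gata3 held no region of either kind.

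On the sex chromosomes the table has 3 gaining regions, and in none of them were the sites below 30% in untreated cells. At chrX:98104120-98104436 the table gives 2.96% and 85.1% and the sites 39.1% and 68.1%. At chrX:140598563-140598814, in Tsc22d3, the table gives 16.1% and 38.0% and the sites 43.17% and 43.20%. At chrY:2587137-2587701 the table gives 12.5% and 61.5% and the sites 59.5% and 66.8%, over 29 cytosines with an untreated value although the untreated mice were female; 98.6% of that region is soft-masked.

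Accessibility was read from the multiome fragments, each end of a fragment being 1 insertion of the transposase. The deposited file pools both groups and marks each barcode with the ending 1 or 2. Which ending belongs to which group is not given, so endings are compared as such. Barcodes with at least 1000 fragments were kept: 8565 of ending 1 with 162817764 insertions and 7237 of ending 2 with 149740716, and 100 barcode sequences occur under both endings. No doublets were called or removed. T cell genes were open in both (Cd3e, 48.8 and 47.5 within 1 kb of the TSS, per 1000000 insertions of an ending, hereafter insertion CPM), and hepatocyte (4 of 4 genes under 0.8), B cell (3 of 3 under 2.5) and macrophage (3 of 3 under 0.3) starts were nearly closed in both. Of the 2 genes used as NK markers, Ncr1 had 1.31 insertion CPM at its start in ending 1 and 5.92 in ending 2. Klrb1c, which is also on the list of iNKT genes used here, had 1.62 and 1.28. The part of NK cells in the results was not tested.

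The gaining regions had fewer insertions in ending 2. The 407 regions held 281299 insertions in ending 1 and 149790 in ending 2, which is 1728 and 1000.3 insertion CPM, a ratio of 0.579 (95% exact interval from 0.575 to 0.583, counting error only). The same ratio was 0.985 within 1 kb of protein-coding TSS, 0.925 in the flanks 5 to 10 kb from the regions, 0.573 in the other regions with a gain and 2.56 in the regions that lost methylation. The interval takes every insertion as independent, although 2 can come from 1 fragment. The insertions of the 407 regions came from 188796 fragments in ending 1 and 102153 in ending 2. The intervals of insertion ratios here and below are therefore too narrow even for counting error. Of the 434 regions, 401 had at least 50 insertions over both endings. Among these, 256 were lower in ending 2 past 1.5-fold (63.8%) and 7 higher (1.75%). Over all 2416 regions of the table with as many insertions the shares were 21.2% lower and 57.8% higher, and over 16545 protein-coding TSS they were 3.11% and 13.8%. Of the 27 regions, 24 had no insertion at all in either ending, and 1 reached 50.

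**Figure D3:**
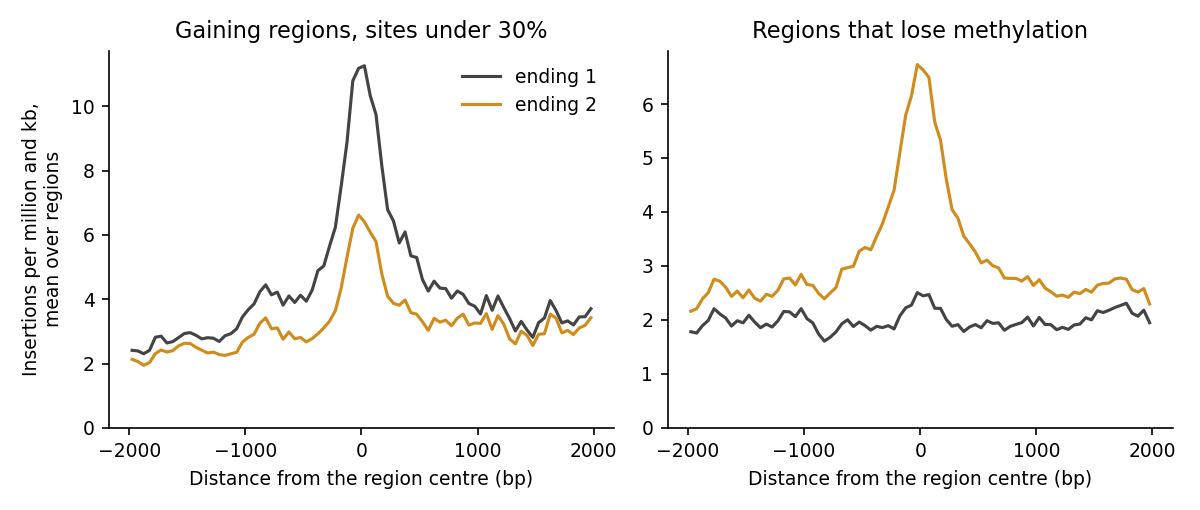
Insertion CPM per kb (vertical axis, mean over regions, bins of 50 bp) against the distance from the region centre (horizontal axis, bp), for barcodes of ending 1 and ending 2. In the 407 gaining regions the highest bin is 11.3 in ending 1 and 6.62 in ending 2; in the regions that lost methylation it is 2.51 and 6.73.

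With the insertions of both endings pooled, most gaining regions were more open than their flanks. The pool holds nuclei of both groups, so it does not give the state before treatment. The 407 regions held a median of 1819 insertions per kb over both endings, which was 5.12 times the density in their flanks, against 721 per kb and 1.89 times in the other regions with a gain and 615 per kb and 2.70 times in the regions that lost. The density was more than 2 times that of the flanks in 301 of the 407, in 214 of 454 other regions with a gain, in 1142 of 1979 regions that lost and in 1659 of all 2866 regions. The peak at the centre of the regions was lower in ending 2, while 1.5 to 2 kb away the levels were close, at 3.05 and 2.71 insertion CPM per kb. The difference was therefore narrow, and a peak was present in both endings.

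By place, the ratio was 0.592 over intronic, 0.516 over coding exonic and 0.598 over intergenic regions, and 0.630 over regions in a promoter against 0.570 over the others. When the 407 regions were ordered by their gain in methylation and split into 3 parts of equal size, the ratio was 0.663 for gains of 10.3 to 26.7 points, 0.555 for 26.9 to 35.6 and 0.489 for 35.7 to 57.0; the split was chosen after the data were seen. Across the 400 regions with at least 50 insertions the gain and the log2 ratio had a Pearson r of -0.32 and a Spearman correlation of -0.34. The regions are not independent replicates, and all share the same libraries. Those past 1.5-fold lower were 60 of 133 in the first part, 88 of 134 in the second and 108 of 133 in the last.

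**Figure D4:**
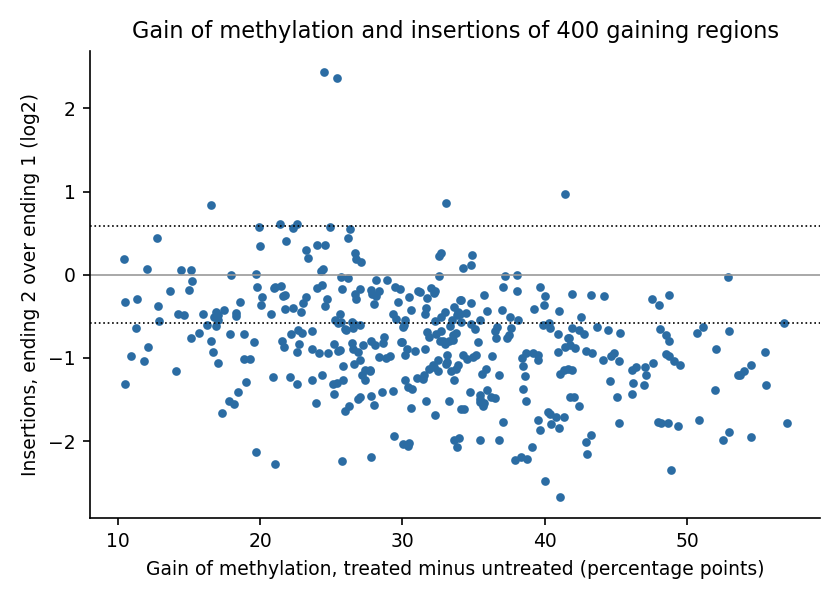
Each point is 1 of the 400 gaining regions with CpG sites under 30% and at least 50 insertions: horizontal axis, gain of methylation (percentage points); vertical axis, log2 ratio of insertions in ending 2 over ending 1. Dotted lines mark 1.5-fold; 256 points lie below the lower line and 7 above the upper, and larger gains lie lower.

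The 5 lowest ratios among the 375 regions with at least 200 insertions were in Frmd6 (207 insertions in ending 1 and 30 in ending 2, ratio 0.158, exact interval from 0.104 to 0.232), in Snrpd3 (chr10:75531688-75532047, 1403 and 231, 0.179), in an intergenic region (chr8:126626588-126627617, 1051 and 190, 0.197), in Rcan1, which encodes an inhibitor of calcineurin (chr16:92460591-92461039, 363 and 69, 0.207), and in another intergenic region (chr1:61102282-61102712, 890 and 173, 0.211). The 5 highest were at Rgs8 (47 and 234, ratio 5.41, exact interval from 3.94 to 7.57), in Hivep3 (chr4:119815027-119815245, 80 and 132, 1.79), in Dusp4, a phosphatase of MAP kinases (chr8:34815027-34815642, 246 and 346, 1.53), in Hvcn1 (chr5:122232968-122233562, 616 and 865, 1.53) and in an intergenic region (chr7:3442541-3443016, 302 and 413, 1.49). The Rgs8 region, at a promoter, thus gained methylation and had more insertions in ending 2.

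All 5 Foxp1 regions were lower in ending 2 past 1.5-fold, with insertions of 1570 and 443, 428 and 114, 3382 and 1068, 385 and 103, and 323 and 108 in the order given above, and ratios between 0.2896 and 0.364. The Gata3 region held 399 and 107 insertions (ratio 0.292) and the Ccr9 region 314 and 131 (0.454). The Satb1 regions had ratios of 0.607, 0.728 and 0.627, those of Txk 0.569 and 0.624, that of Ccr7 0.634, that of Rora 0.615 and that of Fyn 0.595. In the second Satb1 region and in Ets1 (0.716), Cd247 (0.783) and Lef1 (0.875; 128 and 103 insertions, exact interval from 0.668 to 1.14) the ratio stayed inside 1.5-fold. Within Grap2 the 3 regions differed, with ratios of 0.503, 1.28 and 0.407. In Pag1 they ran from 0.537 to 1.04.

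The spread over barcodes was wider in ending 2. Per 10000 insertions of a barcode, the 407 regions took a median of 17.6 in ending 1 (quartiles 13.5 and 21.6) and of 9.46 in ending 2 (quartiles 4.57 and 15.1). With at least 5000 fragments per barcode the medians were 17.7 and 9.69. In ending 2 barcodes with a smaller share in the gaining regions had a larger share in the regions that lost methylation (Spearman correlation -0.58 over 7237 barcodes), while in ending 1 it was -0.02 over 8565. Barcodes are not replicates, both shares have the same total, and the cause was not tested. Fragments under 120 bp were 29.2% of those in the gaining regions in ending 1 and 28.0% in ending 2, against 33.4% and 33.0% of all fragments.

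SmartSeq2 counts were summed over 273 untreated cells (172559865 counts) and 251 treated cells (149084200 counts) and scaled to counts per 1000000 (CPM). The log2 ratios are of treated over untreated CPM, each with 1 CPM added. The T cell genes Cd3e, Cd3d, Cd3g, Trac, Trbc1, Trbc2, Zbtb16, Tbx21 and Il2rb summed to 7996 CPM in untreated and 7657 in treated cells. The 3 macrophage genes summed to 0.0116 and 1793 CPM, with Lyz2 in 11 treated cells and in no untreated cell, and the 4 hepatocyte genes to 0 and 82.3 CPM; of the 3 B cell genes, Cd79a had 2 counts in 1 untreated cell and the others none in either group. Of the genes used as NK markers, Ncr1 was at 191 and 759 CPM and Klrb1c at 40.4 and 39.8. Klrb1c is also on the list of iNKT genes used here, and the study's supplement marks it as expressed in some iNKT cells. Its reads therefore do not tell NK cells from iNKT cells. The part of other cell types in the results was not tested.

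Among genes with a gaining region in the body, the share lower in treated cells was above that of all genes. It was near that of genes with another region that gained. Of 327 genes with a gaining region in the body, 263 had at least 10 summed counts. Past 2-fold, 66 of these (25.1%) were lower and 51 (19.4%) higher, against 17.2% lower and 20.1% higher of all 15052 genes with as many counts. The filter is on reads and not on cells, so a call can rest on 1 cell. BC043934 had 2125 counts in 1 untreated cell and none in treated cells. Dnaaf5 had 2293 counts in 1 treated cell and none in untreated cells. How many calls rest on few cells was not counted. Among protein-coding genes alone, 24.9% of those with a gaining region were lower and 18.5% higher, against a background of 19.1% and 23.4%. In untreated cells the median expression of the 263 genes was 25.8 CPM, against 8.04 CPM over all genes. For protein-coding genes alone it was 27.8 against 20.2 CPM. The median log2 ratio of the 263 genes was -0.11, against 0.02 over all genes. Genes with another region that gained had 24.1% lower and 23.7% higher, and genes with a region that lost and no gaining region had 16.2% lower and 29.1% higher, with a median of 0.25. Of the 201 genes that held a gaining region and no region that lost, 55 were lower (27.4%) and 40 higher (19.9%). Of the 62 that also held a region that lost, 11 were lower and 11 higher (17.7% each). With 1 value per group none of these differences could be tested.

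The share of lower genes was close whether or not their regions had fewer insertions in ending 2, with no test made. Where at least 1 region was past 1.5-fold lower in ending 2, 43 of 173 genes (24.9%) were lower in treated cells, and where none was, 22 of 84 (26.2%). Genes with a gaining region in the promoter were few, with 10 lower and 7 higher of 37.

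**Figure D5:**
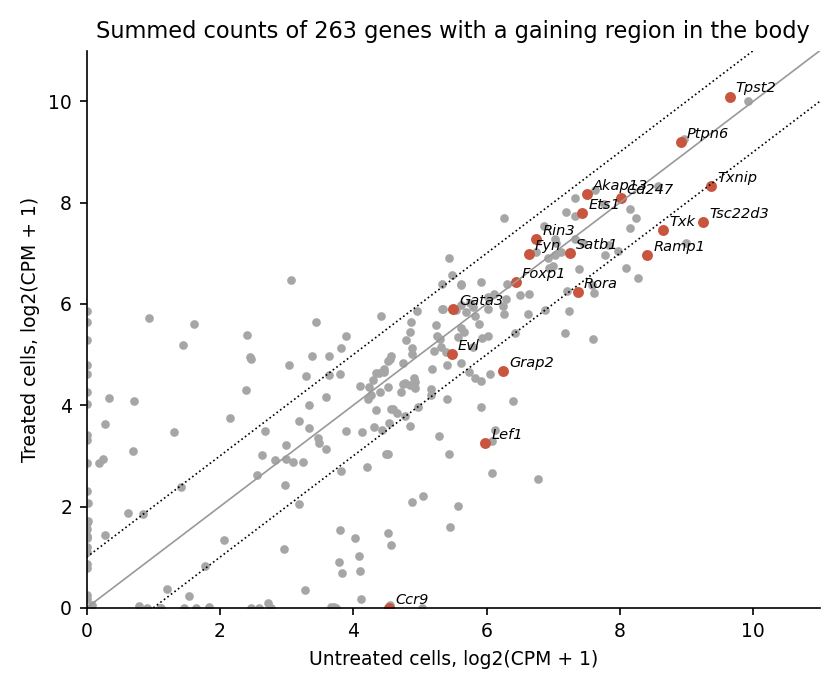
Expression of the 263 genes with a gaining region in the body and at least 10 summed counts: horizontal axis, untreated cells; vertical axis, treated cells, both as log2(CPM + 1). The solid line marks equal values and the dotted lines 2-fold; 66 genes lie below the lower dotted line and 51 above the upper, and named genes are in red.

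Of the well-measured genes, with 500 or more counts and a group in which 20% or more of cells had reads, 16 held a gaining region; 4 were lower past 2-fold and none was higher. Of all 898 genes under the same filter, 23 were lower and 37 higher, and without the 27 regions the count was 3 lower and none higher of 15. Tsc22d3, the glucocorticoid-induced leucine zipper, went from 605 to 195.7 CPM (log2 ratio -1.62) and from 31.1% to 17.5% of cells; its region is one of the 27, with sites at 43.17% and 43.20%. Ramp1, a partner of the CGRP receptor, went from 338 to 123 CPM (-1.45) and from 23.8% to 7.97% of cells. Its region lies in an intron within 2 kb of the start (chr1:91181776-91182144, 4.77% to 27.7%, ratio of insertions 0.6175). Txk went from 400.2 to 175 CPM (-1.19) and from 36.3% to 22.7% of cells. Txnip went from 663 to 322 CPM (-1.04) and from 37.7% to 19.5% of cells, and its 2 regions went from 6.48% to 39.2% (chr3:96559625-96560521) and from 13.2% to 69.9%, with ratios of insertions of 0.704 and 0.6702. Evl, a regulator of actin, was next, from 43.6 to 31.3 CPM (-0.46).

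The 5 genes of this set with the highest ratios stayed inside 2-fold. They were Akap13, an anchoring protein of protein kinase A (180 to 287 CPM, log2 ratio 0.67), Rin3 (106 to 155, 0.55), Tpst2, which sulfates tyrosines (801 to 1093, 0.45), Ets1 (172 to 222, 0.37) and Ptpn6, the phosphatase SHP-1 (481 to 589, 0.29). Their regions had gained between 12.1 and 53.7 points. The ratio of insertions was 1.28 at Rin3 and 1.14 at Tpst2, and 0.435 at Ptpn6, 0.548 at Akap13 and 0.716 at Ets1.

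Of the listed genes with a gaining region, Lef1 had the lowest log2 ratio among those read in more than 10 untreated cells, going from 62.2 to 8.51 CPM (log2 ratio -2.73), with reads in 21 of 273 untreated cells (7.69%, exact interval from 4.82% to 11.5%) and in 5 of 251 treated cells (1.99%, from 0.65% to 4.59%). Grap2, which is on no list, went from 74.9 to 24.7 CPM (-1.57) and Rora from 164 to 74.5 CPM (-1.13), the latter from 37 to 11 cells. Foxp1, with 5 gaining regions, was at 85.5 and 85.2 CPM (-0.01), in 17.2% and 17.9% of cells. Satb1 (151 and 127 CPM, -0.25), Pag1 (35.3 and 25.3, -0.46), Gata3 (44.3 and 58.7, 0.40), Fyn (98.2 and 125, 0.35) and Cd247 (257 and 271, 0.08) stayed inside 2-fold as well. Ccr9 had 3847 counts in 3 untreated cells and none in treated cells, and Ccr7 was listed at 0 in both groups.

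Of the enzymes that set methylation, the maintenance enzyme gene Dnmt1 was at 90.1 and 57.1 CPM, Dnmt3a at 20.3 and 14.6 and Dnmt3b at 0.168 and 1.31, each read in at most 15 cells of a group. Tet1 was at 28.5 and 0.543 CPM (5 cells and 1 cell), Tet2 at 12.3 and 68.1 (12 and 15 cells) and Tet3 at 21.1 and 50.1 (15 and 12 cells). Of the 24 genes of the naive and memory list, 21 had at least 10 counts, and 3 were lower and 7 higher past 2-fold, with a median log2 ratio of 0.07. Of the 24 genes associated with Tr1 cells, none of which held a gaining region, 22 were measured and 17 were higher, with a median of 3.29. That list holds genes the study reports as upregulated by treatment, so these values are a description.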

How the data were processed

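For whole genome bisulfite sequencing the authors mapped reads to mm10 (GRCm38) with BSMAP, removed duplicates, kept unique reads and called regions with metilene. The deposited fraction values give the methylated share of the reads covering each cytosine, or its mean over a region. Replicates were merged by the authors into 1 value per group, how is not given in the sources used here; read depth is unknown, so no interval is given for a fraction. Region starts in the deposited table count from 0 and are printed here from 1. The q-values and differences of the authors' own comparison were not used. The deposited count values of SmartSeq2 are reads per gene and cell, aligned by the authors with STAR to GRCm38, without molecular identifiers. The deposited count column of the chromatin file holds read pairs per fragment after the authors' run of Cell Ranger ARC; fragments were counted once each. The series' bulk ATAC-seq samples, 3 in each group, were not analysed here.

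Analyses used Python 3.11.15, numpy 2.4.6, pandas 2.3.3, scipy 1.17.1, pysam 0.24.0 and numba 0.67.0, and were tested on simulated data. Genes followed GENCODE M21, with overlaps of at least 1 base. Repeats were read as words of 31 bases that occur more than once on chromosomes 1 to 19, X and Y. SmartSeq2 cells were those to which the study gives a sub-cluster, 273 of 284 untreated and 251 of 282 treated. Regions and genes were named by rule: the 10 largest gains, the 5 with most CpGs, those in listed genes, the 5 highest and lowest ratios of expression and of insertions, the 2 on either side of the limit, those on X and Y, and genes with 3 or more regions. The members and lists were chosen with earlier results of these data known.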

Additional observations from a re-analysis of the deposited data

How the results depend on the processing

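The count of 434 regions was 146 with a limit of 10% and 191 with at least 20 CpG positions, both strands counted. The promoter share was 9.68% with 1 kb on either side, 9.22% with 2 kb upstream only and 7.37% with protein-coding TSS only, and the gene body share 72.6% with protein-coding genes only. The CpG density was 4.40 when each strand was counted and 2.58 with at least 20 CpG positions. Over all 434 regions the CpG sites averaged 17.97% and 45.6%; the mean of region means was 16.1% in untreated cells, CpGs listed on both strands gave 16.3% and 44.6%, and without the 27 regions the values were 13.1% and 42.8%. Non-CpG sites were 1.85% and 2.36% as means of region means. The ratio of insertions was 0.588 when scaled to TSS and 0.627 with 500 bp on either side. Genes lower and higher past 2-fold were 4 and 0 of 16 with at least 500 counts and 20% of cells, and 10 and 7 of 37 for promoters; both alternatives test fewer genes. The other 34 alternatives stayed within 1.5 times for counts, or within the 95% interval of the value, and the median log2 ratio of the genes was 0 with no filter on counts. Leaving out the 27 regions was chosen after the data were seen. No paired analysis was possible because each group holds 1 sample. Limits are the single sample per group in the data used, the unknown depth of each fraction and the endings without a group.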
